A study of Homo sapiens with 4 samples.

Results

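The proteasome genes of 22Rv1 cells were compared between a CDK9-directed degrader and its vehicle. They were taken as the protein-coding genes whose symbol begins with PSM, a letter from A to G and a number, which gave 50 of the 63241 genes in the table. A further 51 genes with such a symbol were pseudogenes or noncoding genes and were left out. Of the 50, 19 were PSMA or PSMB genes of the 20S core, 20 were PSMC or PSMD genes of the 19S regulatory particle, 4 were PSME activators, 1 was the inhibitor PSMF1 and 4 were PSMG assembly chaperones. The remaining 2, PSMC3IP and PSME3IP1, matched by symbol only: PSMC3IP is a cofactor of meiotic recombination, and PSME3IP1 is a protein that binds the activator PSME3.

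The 26S proteasome degrades proteins tagged with ubiquitin. Its barrel, the 20S core, is made of outer alpha rings, which gate the entry, and inner beta rings, which hold the cutting sites, while the 19S particle on its end binds ubiquitin chains, removes them and unfolds the substrate with a ring of ATPases. The subunits are built in together in fixed proportions, with the help of chaperones that leave the finished particle, and the transcription factor NFE2L1 raises the transcription of many of the genes when proteasome activity is low. Many degraders act by handing their target to this machinery.

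22Rv1 is an established epithelial line of castration-resistant prostate cancer. Cells were kept for 12 h with JMC45 at 40 nM, which the labels say targets CDK9, or for 12 h with DMSO vehicle. Each group had 2 libraries. The series title names a degrader D45, and D45 and JMC45 were taken to be the same compound, which is an assumption. CDK9 is the kinase that releases paused RNA polymerase II into elongation, and the comparison asks which transcripts differ after exposure to the compound. Poly(A)-selected RNA was sequenced, and the deposited unit is TPM, a length-scaled share of the library, so levels can be compared between genes and every difference below is a difference in share. Separate cultures are not named in the labels, and p-values therefore rest on the spread of 2 libraries a group, which may be technical alone. In bulk RNA, fewer cells of a kind and less RNA per cell cannot be told apart.

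CDK9 mRNA had 4.93 and 3.78 TPM in JMC45, against 20.2 and 22.5 TPM in vehicle, which does not check the labels, since a degrader acts on the protein. The epithelial and prostate markers EPCAM, KRT8, KRT18, HOXB13 and KLK3 were at 9.89 TPM or more in every library, and the leukocyte and endothelial markers PTPRC, CD3E and PECAM1 at 0.02 TPM or less, while the macrophage marker CD68 was at 0.37 and 0.54 TPM in JMC45, against 0.57 and 0.28 TPM in vehicle, and the stromal marker COL1A1 at 1.12 and 2.26 TPM, against 2.45 and 2.18 TPM. Mitochondrially encoded genes held 26.6% and 29.3% of all TPM in JMC45, against 20.4% and 20.1% in vehicle, and cytosolic ribosomal protein genes 30.2% and 28.6%, against 18.7% and 20.4%. The part of these shares in the results below was not tested. The median of the 14018 genes tested changed by -1.10 on the log2(TPM + 1) scale. One scaling factor per library (median-of-ratios) moves that median to -0.02, so the direction of a gene with a change near the median depends on the scaling. The result after median-of-ratios scaling is therefore given for each class, and the closing section lists the genes whose sign it changes. The sequencing depth is unknown, since TPM keeps none.

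As a whole, proteasome transcripts made up less of the JMC45 libraries than of the vehicle libraries, to an extent close to that of genes in general, but the parts of the machine differed widely. As a class the 4 PSMG chaperones that build the 20S core had the largest median decrease, the alpha and beta subunits fell by moderate amounts, the 19S subunits spanned a wide range, and the activator PSME1 was higher. Of the 50 genes, 48 reached the mean of 1 TPM needed for testing. PSMA8, an alpha subunit of the testis, was listed at 0 in all 4 libraries, and PSMB11, the beta subunit of thymic epithelium, was listed at 0.03 TPM in JMC45 replicate 1 and at 0 in the other 3. limma called 44 of the 48 lower and 1 higher at a Benjamini-Hochberg adjusted p below 0.05, against 80.7% lower and 4.25% higher among all genes tested. The median change of the 48 was -0.94, which is 0.16 above that of all genes. In 44 genes both JMC45 libraries lay below both vehicle libraries, as they did in 85.7% of all genes tested, and in 1 above both, as in 6.28%. On the log2(TPM + 1) scale, which understates changes of low genes, 23 fell by at least 2-fold, as did 54.3% of all genes. After median-of-ratios scaling 11 were lower and 28 higher, against 35.5% lower and 34.9% higher of all genes, and after quantile normalization 29 were lower and 7 higher, against 32.8% and 33.6%. Summed over the 46 tested genes without PSMC3IP and PSME3IP1, proteasome transcripts made up 0.462% and 0.445% of all TPM in JMC45, against 0.754% and 0.774% in vehicle.

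**Figure D1:**
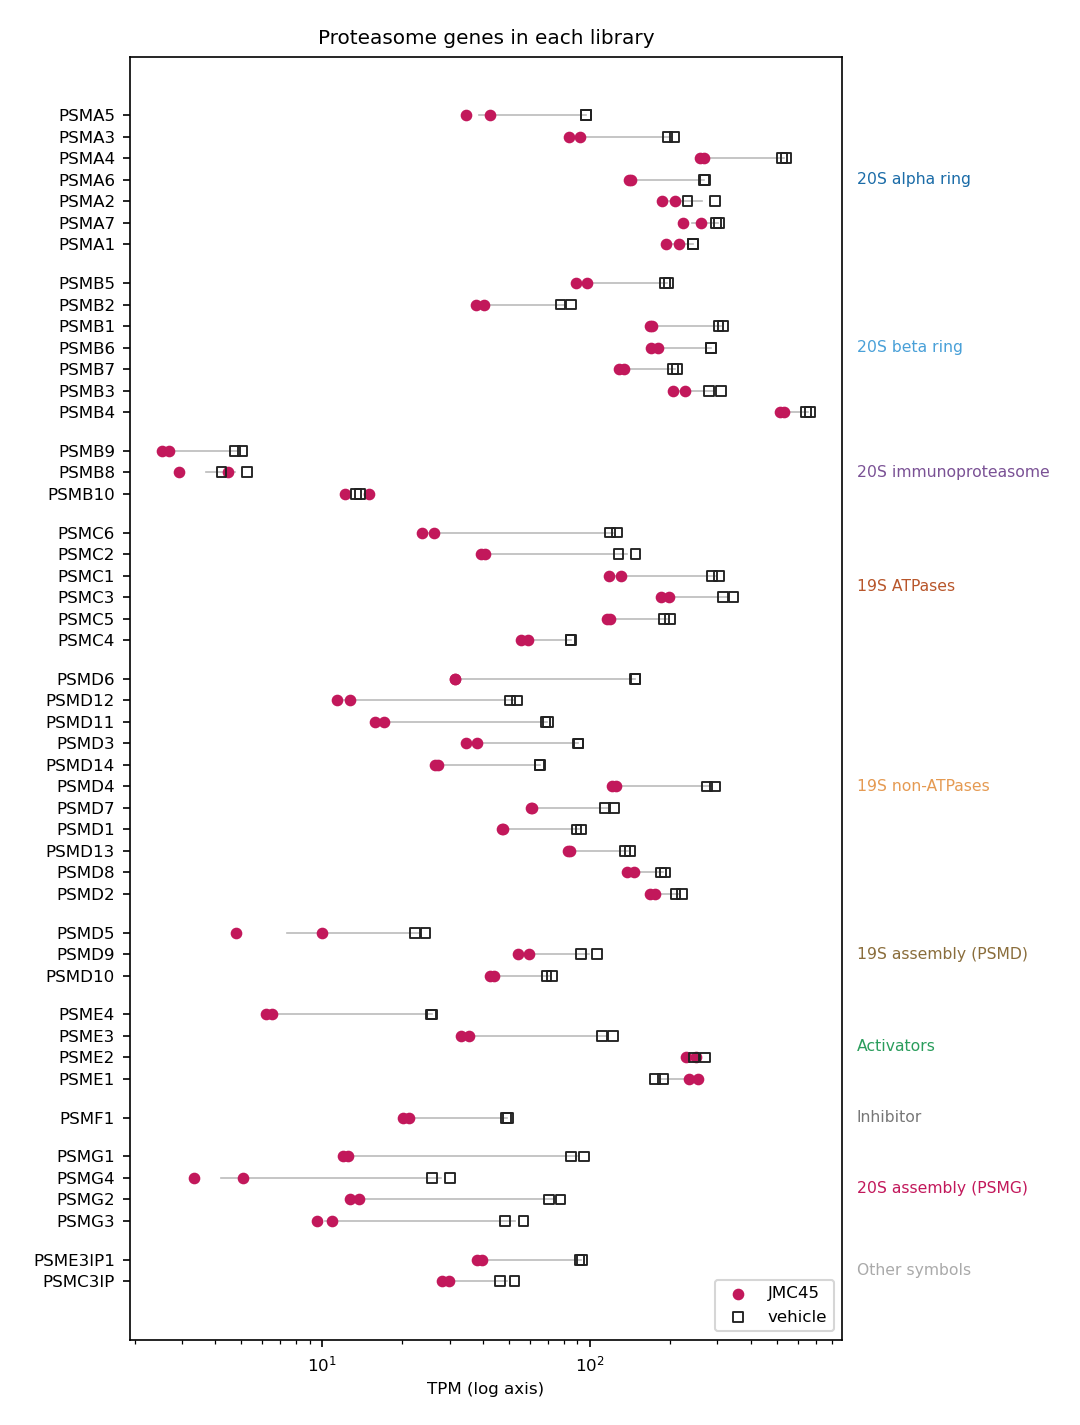
TPM of each of the 48 tested genes in each library on a log axis, with filled circles for the 2 JMC45 libraries, open squares for the 2 vehicle libraries and a grey line joining the group means, grouped by place in the proteasome. The circles lie left of the squares in 44 genes, overlap them in PSMB8, PSMB10 and PSME2, and lie right of them in PSME1.

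A set of 11 of the 48 members was called lower on TPM and under each of 14 other settings of the scaling, filters, model and libraries used: the 4 PSMG chaperones, PSMC2, PSMC6, PSMD6, PSMD11, PSMD12, PSME3 and PSME4. Among all genes tested, 28.3% were called lower in every setting that tested them and 1.06% higher. No member was called higher under all of them.

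Promoter sequence was looked at because the members are known to share regulators. RefSeq promoter windows (GRCh38.p14, 250 bases before to 50 after the first listed start of a gene) were matched by symbol for 44 of the 50 members. PSMA7, PSMB1, PSMB6, PSMB7, PSMD4 and PSMG3 had no entry. The core of the antioxidant response element, through which NFE2L1 and NFE2L2 act with small MAF partners, was searched as TGACNNNGC on both strands, and an ETS core, bound by the ETS family of transcription factors, as CCGGAAG on both strands. The antioxidant response element letters were in 13 of the 44 windows (29.5%), against 14.3% of 15843 windows of protein-coding genes and 13.6% of all 27305 windows. The ETS letters were in 14 windows (31.8%), against 14.2% of protein-coding and 10.7% of all windows. They were found in 3 of 6 PSMC and 6 of 10 PSMD subunit windows and in none of the 10 windows of standard PSMA and PSMB genes. Tested members with the ETS letters had a median log2 change of -1.25 (13 genes) and those without of -0.92 (29 genes), and for the antioxidant response element core the medians were -0.93 (13 genes) and -1.01 (29 genes). The ETS letters were unevenly spread over the classes, so motif and class cannot be told apart in the ETS medians. No copy of one of these motifs, or of CCAAT, overlapped a copy of another. The 5 other motifs searched on both strands were CCAAT (47.7% of members, against 36.4% of protein-coding windows), GGGCGG (68.2%, against 58.5%), TATAAA (11.4%, against 9.63%), CACGTG (9.09%, against 8.88%) and the palindrome of nuclear respiratory factor 1 (11.4%, against 8.58%). A match is a description of letters and was not tested as a site.

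The last 120 bases before the start are shown for 5 of the chaperone, 19S and activator genes that were called lower under every setting and hold one of these motifs there. PSMC2 and PSMD12 also meet this rule, with an ETS core at -23 and -8 from the start, and are not shown. PSME1, which rose on TPM, is shown as well. Capitals mark the antioxidant response element core in PSMG2 (chr18:12658618-12658737, plus strand) and PSME1 (chr14:24136074-24136193, plus strand), the ETS core in PSMG4 (chr6:3258827-3258946, plus strand), PSMC6 (chr14:52707080-52707199, plus strand) and PSMD6 (chr3:64023495-64023614, minus strand), and both, the ETS core first, in PSME4 (chr2:53970994-53971113, minus strand). All are written 5′ to 3′ on the strand of the gene.
PSMG2: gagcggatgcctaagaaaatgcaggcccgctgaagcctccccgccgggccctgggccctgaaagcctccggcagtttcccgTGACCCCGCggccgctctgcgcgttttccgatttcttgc
PSMG4: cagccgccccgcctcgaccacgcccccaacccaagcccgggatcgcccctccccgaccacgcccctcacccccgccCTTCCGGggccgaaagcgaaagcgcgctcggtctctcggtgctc
PSMC6: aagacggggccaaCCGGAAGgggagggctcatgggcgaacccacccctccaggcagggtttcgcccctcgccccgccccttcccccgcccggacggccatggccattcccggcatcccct
PSMD6: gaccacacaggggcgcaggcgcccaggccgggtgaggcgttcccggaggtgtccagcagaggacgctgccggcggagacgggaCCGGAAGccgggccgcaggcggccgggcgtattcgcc
PSME4: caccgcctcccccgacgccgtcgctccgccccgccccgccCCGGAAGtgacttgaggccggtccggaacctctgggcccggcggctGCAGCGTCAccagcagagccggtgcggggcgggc
PSME1: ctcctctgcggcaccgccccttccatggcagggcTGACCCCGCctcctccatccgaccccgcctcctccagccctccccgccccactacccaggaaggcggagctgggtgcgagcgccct
The same 9 letters of the element, TGACCCCGC, stand in PSMG2, which had one of the largest decreases, and in PSME1, the member that rose.

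The assembly chaperones of the 20S core had a median log2 change of -2.45, against -1.10 for all genes tested, and each of the 4 fell by at least 4-fold on the log2(TPM + 1) scale, as did 8 of the 48 members and 15.2% of all genes tested. PSMG1 and PSMG2 pair up (as PAC1 and PAC2) and PSMG3 and PSMG4 pair up (as PAC3 and PAC4) to order the alpha ring, and both pairs are released before the core is finished. PSMG1 had 12.0 and 12.5 TPM in JMC45, against 94.9 and 84.9 TPM in vehicle. Its partner PSMG2 had 13.8 and 12.7 TPM in JMC45, against 70.7 and 77.8 TPM in vehicle. In both genes the groups were far apart compared with the gap between replicates, and the vehicle mean was 7.34 times the JMC45 mean for PSMG1 and 5.60 times for PSMG2. The log2 changes were -2.78 (SE 0.09, limma adjusted p = 9.82e-06) for PSMG1 and -2.40 (SE 0.09, adjusted p = 1.03e-05) for PSMG2. PSMG3 had 10.9 and 9.60 TPM in JMC45, against 48.2 and 56.7 TPM in vehicle, a log2 change of -2.25 (SE 0.11). PSMG4 had 5.07 and 3.33 TPM in JMC45, against 30.1 and 25.7 TPM in vehicle, a log2 change of -2.49 (SE 0.18), and its JMC45 replicates spread more than those of the other chaperones. Among all genes tested, 2.87% changed more negatively than PSMG1 and 9.93% more negatively than PSMG3, the least changed of the 4. The log2(TPM + 1) scale understates changes of low genes, while the vehicle means of the 4 chaperones were 27.9 to 89.9 TPM. These shares of all genes, and the 15.2%, can therefore be too small.

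The call of these genes held under every scaling that was run. All 4 chaperones were also called lower after median-of-ratios scaling, at -1.47 for PSMG1, -1.28 for PSMG4, -1.10 for PSMG2 and -0.96 for PSMG3, and after quantile normalization. Of all genes tested, 35.5% were lower after the first and 32.8% after the second. A ratio taken within a library does not depend on its scaling factor: for every 1000 TPM of the 14 core subunits PSMA1 to PSMA7 and PSMB1 to PSMB7, the chaperones together had 16.1 and 15.6 TPM in JMC45, against 63.3 and 61.2 TPM in vehicle. POMP, the chaperone of the beta ring, was chosen for its role and is not taken by the symbol rule. It had 145 and 145 TPM in JMC45, against 199.8 and 236 TPM in vehicle, and fell by 0.58 on the log2 scale (SE 0.09, adjusted p = 0.00115), and was at 0.77 after median-of-ratios scaling.

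The 20S core itself fell moderately. All 7 alpha and all 7 beta subunits fell on TPM, where 80.7% of all genes tested did. The median was -0.92 for the alpha and -0.70 for the beta genes. Of the 14 changes, 12 lay above the median of all genes tested. After median-of-ratios scaling 12 of the 14 were higher and none lower, where 34.9% of all genes were higher and 35.5% lower. Quantile normalization gave the other direction, with 10 of the 14 lower, 0 higher and a median of -0.31. Of all genes, 32.8% were lower and 33.6% higher after it. The direction of the core therefore depends on the scaling. The summed TPM of the 14 was 2599 and 2441 in JMC45, against 3852 and 4001 in vehicle.

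Among the alpha genes, which form the outer rings, PSMA5 and PSMA3 had the largest decreases. PSMA5 had 42.5 and 34.6 TPM in JMC45, against 97.2 and 96.6 TPM in vehicle, a log2 change of -1.31 (SE 0.11, adjusted p = 6.83e-05). PSMA3 had 91.7 and 83.9 TPM in JMC45, against 207 and 195 TPM in vehicle, a log2 change of -1.19 (SE 0.07). The smallest decreases were in PSMA1 and PSMA7, whose groups did not overlap but came close. PSMA1 had 215 and 192 TPM in JMC45, against 243 and 243 TPM in vehicle, a log2 change of -0.25 (SE 0.07, adjusted p = 0.0155). PSMA7 had 260.1 and 224 TPM in JMC45, against 296 and 305 TPM in vehicle, a log2 change of -0.31 (SE 0.08, adjusted p = 0.0126). PSMA2 was close to these at -0.40 (SE 0.12, adjusted p = 0.0207), while PSMA4 and PSMA6 fell by 1.01 and 0.92. The calls of PSMA1, PSMA2 and PSMA7 depended on single libraries: each was lost when 1 library was left out, PSMA1 without JMC45 replicate 2 (-0.17), without vehicle replicate 1 (-0.25) or without vehicle replicate 2 (-0.26), PSMA2 without JMC45 replicate 2 (-0.32) or vehicle replicate 2 (-0.23), and PSMA7 without vehicle replicate 1 (-0.34) or vehicle replicate 2 (-0.29). Without JMC45 replicate 2, PSMA7 was at -0.21 and still called. The calls of all 3 were also lost without the mitochondrially encoded genes (-0.11 for PSMA1, -0.26 for PSMA2 and -0.17 for PSMA7), those of PSMA1 and PSMA2 without the intensity trend, and those of PSMA2 and PSMA7 without the filter on low values.

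The beta ring carries the 3 cutting sites of the standard proteasome: PSMB5 for the chymotrypsin-like, PSMB6 for the caspase-like and PSMB7 for the trypsin-like activity. PSMB5, the main target of proteasome inhibitors used in the clinic, had 97.6 and 88.6 TPM in JMC45, against 191 and 197 TPM in vehicle, a log2 change of -1.05 (SE 0.07, adjusted p = 3.58e-05). PSMB6 had 179.5 and 169 TPM in JMC45, against 283 and 283 TPM in vehicle, a log2 change of -0.70 (SE 0.06). PSMB7 had 134 and 129 TPM in JMC45, against 205 and 211 TPM in vehicle, a log2 change of -0.66 (SE 0.06). For each of these sites the vehicle libraries lay well above the JMC45 libraries. Of the beta subunits without a cutting site, PSMB2 fell the most and PSMB4 the least. PSMB2 had 40.4 and 37.5 TPM in JMC45, against 85.2 and 77.8 TPM in vehicle, a log2 change of -1.05 (SE 0.08). PSMB4, the most abundant member in every library, had 533 and 515 TPM in JMC45, against 641 and 665 TPM in vehicle, a log2 change of -0.32 (SE 0.06, adjusted p = 0.00225). The groups were again apart in both. PSMB3 had 228 and 204 TPM in JMC45, against 279 and 309.8 TPM in vehicle, a log2 change of -0.45 (SE 0.08), and PSMB1 fell by 0.86.

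In immune cells and after interferon, PSMB8, PSMB9 and PSMB10 replace PSMB5, PSMB6 and PSMB7 to form the immunoproteasome. All 3 were at 15.0 TPM or less in these cells. PSMB10 had 15.0 and 12.2 TPM in JMC45, against 13.9 and 13.4 TPM in vehicle. PSMB8 had 4.46 and 2.94 TPM in JMC45, against 5.24 and 4.22 TPM in vehicle. In both genes the groups overlapped and the test was not passed, with a log2 change of -0.01 (95% interval -0.31 to 0.29) for PSMB10 and -0.30 (-0.79 to 0.19) for PSMB8. PSMB9 fell, with 2.69 and 2.53 TPM in JMC45, against 4.73 and 5.05 TPM in vehicle (log2 change -0.71, SE 0.13, adjusted p = 0.00265). As a share of the standard subunit each replaces, PSMB10 was at 11.2% and 9.45% of PSMB7 in JMC45, against 6.77% and 6.34% in vehicle, PSMB8 at 4.57% and 3.32% of PSMB5, against 2.74% and 2.14%, and PSMB9 at 1.50% and 1.50% of PSMB6, against 1.67% and 1.79%. PSMB8 and PSMB9 share exon bases on opposite strands in GENCODE release 29, and the library kit keeps strand, but no source used here says whether the quantification did, so at these low levels the values of both are uncertain. After median-of-ratios scaling all 3 were higher (1.25, 0.79 and 0.35 for PSMB10, PSMB8 and PSMB9), where 34.9% of all genes were.

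The 17 subunits of the 19S particle with a PSM symbol fell as well, where 80.7% of all genes tested did. Their median was -1.19, against -1.10 for all genes tested, and their range was -2.25 to -0.32. After median-of-ratios scaling 5 were lower and 8 higher, where 35.5% of all genes were lower and 34.9% higher. After quantile normalization 12 were lower and 1 higher, where 32.8% of all genes were lower and 33.6% higher. The summed TPM of the 17 was 1292 and 1323 in JMC45, against 2607 and 2640 in vehicle. The mean level of a 20S subunit was 2.44 and 2.24 times that of a 19S subunit in JMC45, against 1.79 and 1.84 times in vehicle, and the groups did not overlap. No test was made of these ratios, since the members were grouped with earlier results of these data known. The 19S mean leaves out ADRM1 and SEM1, further subunits of the particle whose symbols lie outside the PSM pattern. SEM1 had 698 and 707 TPM in JMC45, against 696 and 696 TPM in vehicle, which is above each of the 17. The ratio therefore holds for the PSM-named subunits only, and it was not computed with SEM1 and ADRM1.

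Among the ATPases of the base, which unfold substrates, PSMC6 and PSMC2 fell the most. PSMC6 had 26.3 and 23.6 TPM in JMC45, against 126 and 119 TPM in vehicle, a log2 change of -2.25 (SE 0.08, adjusted p = 1.03e-05). PSMC2 had 39.3 and 40.7 TPM in JMC45, against 148 and 128 TPM in vehicle, a log2 change of -1.76 (SE 0.09). The other 4 ATPases sit in the same ring and fell less. PSMC4 had 55.3 and 58.8 TPM in JMC45, against 84.8 and 85.2 TPM in vehicle, a log2 change of -0.57 (SE 0.07). PSMC5 had 116 and 119 TPM in JMC45, against 189 and 199.98 TPM in vehicle, a log2 change of -0.72 (SE 0.06). PSMC3 fell by 0.78 and PSMC1 by 1.23. PSMC1 has a processed pseudogene, PSMC1P5, that was listed at 46.0 and 0 TPM in JMC45, against 41.7 and 30.3 TPM in vehicle, which is uneven between replicates, and how reads were divided between the 2 loci is not known, so the level of PSMC1 is uncertain. With both added, PSMC1 came to 165 and 131 TPM in JMC45, against 345 and 317 TPM in vehicle.

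Among the non-ATPase subunits the 3 largest decreases were in the lid. PSMD6, PSMD11 and PSMD12 belong to the lid scaffold, a set of related subunits with PCI domains that hold the deubiquitinase in place. PSMD6 had 31.5 and 31.3 TPM in JMC45, against 148 and 148 TPM in vehicle, a log2 change of -2.20 (SE 0.06, adjusted p = 9.25e-06). PSMD12 had 11.4 and 12.7 TPM in JMC45, against 53.4 and 50.3 TPM in vehicle, a log2 change of -2.02 (SE 0.09). PSMD11 had 17.1 and 15.7 TPM in JMC45, against 68.4 and 69.9 TPM in vehicle, a log2 change of -2.01 (SE 0.08). All 3 were lower after median-of-ratios scaling too, at -0.87, -0.72 and -0.70, where 35.5% of all genes were lower. Of the other PCI subunits, PSMD3 fell by 1.30, PSMD13 by 0.72 and PSMD8 by 0.40. PSMD14, the deubiquitinase that cuts ubiquitin chains off the substrate, had 26.5 and 27.1 TPM in JMC45, against 65.0 and 65.3 TPM in vehicle, a log2 change of -1.25 (SE 0.07). Its inactive partner PSMD7 fell by 0.96.

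The large scaffold subunits of the base and the ubiquitin receptors of the particle fell unequally. PSMD2, which docks substrate shuttles, had 168 and 176 TPM in JMC45, against 209 and 221 TPM in vehicle, a log2 change of -0.32 (SE 0.06, adjusted p = 0.0032). PSMD8 had 146 and 138 TPM in JMC45, against 185 and 191 TPM in vehicle. Its log2 change was -0.40 (SE 0.06). These were the smallest decreases among the 17 genes, although in each the groups did not overlap. PSMD1, the other large base subunit, fell by 0.93, and PSMD4, a ubiquitin receptor, by 1.19. ADRM1, a receptor whose symbol lies outside the PSM pattern, had 28.3 and 22.3 TPM in JMC45, against 62.4 and 62.6 TPM in vehicle, a log2 change of -1.28 (SE 0.12). SEM1, the smallest subunit of the lid, was not called: it had 698 and 707 TPM in JMC45, against 696 and 696 TPM in vehicle, a log2 change of 0.01 (SE 0.05, adjusted p = 0.834, 95% interval -0.12 to 0.14). After median-of-ratios scaling SEM1 was higher, at 1.36.

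The dedicated chaperones of 19S assembly, PSMD5, PSMD9 and PSMD10 (gankyrin), bind ATPases of the base before it joins the core. PSMD5 had 4.76 and 10.0 TPM in JMC45, against 24.4 and 22.3 TPM in vehicle, a log2 change of -1.61 (SE 0.29, adjusted p = 0.00235). The JMC45 replicates of PSMD5 differed by a larger ratio than those of any other tested member: the change was -1.14 without JMC45 replicate 1 and -2.08 without JMC45 replicate 2. After median-of-ratios scaling it was -0.37 and not called. PSMD9 had 59.3 and 54.2 TPM in JMC45, against 107 and 92.7 TPM in vehicle, a log2 change of -0.80 (SE 0.09). PSMD10 had 42.6 and 44.0 TPM in JMC45, against 69.0 and 72.4 TPM in vehicle, a log2 change of -0.69 (SE 0.07), and in both genes the replicates were close together. PAAF1, a further chaperone of this kind outside the PSM pattern, fell by 1.99, and was lower at -0.72 after median-of-ratios scaling, while PSMD9 and PSMD10 were then higher at 0.53 and 0.63.

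**Figure D2:**
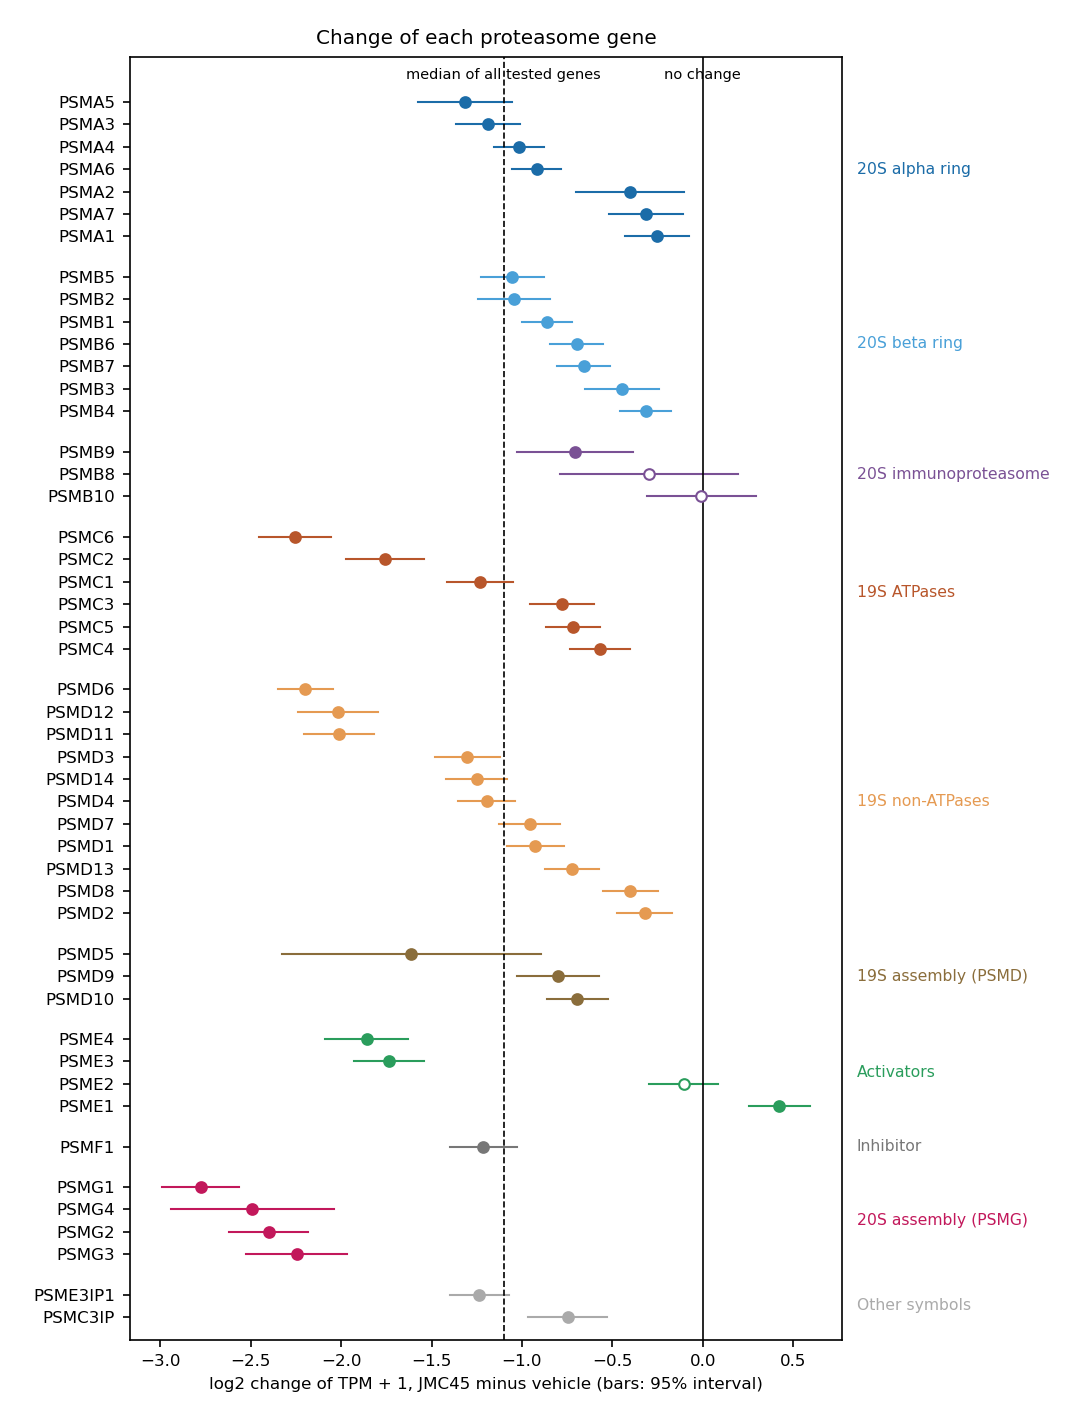
Log2 change of TPM + 1 for each tested gene, JMC45 minus vehicle, with 95% intervals from limma, where filled points passed an adjusted p of 0.05 and open points did not. The dashed line marks the median of all 14018 genes tested (-1.10). PSMG1, PSMG4 and PSMG2 lie furthest left, next to PSMC6, PSMG3 and PSMD6, and PSME1 is the only point right of 0.

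Subunits that share 1 particle stood further apart in level in JMC45 than in vehicle. Across the 31 subunits of the 20S core and the 19S particle counted above, the highest level was 46.7 and 40.5 times the lowest in JMC45, against 12.0 and 13.2 times in vehicle. The SD of their log2 TPM was 1.31 and 1.31 in JMC45, against 0.88 and 0.92 in vehicle. Neither measure of spread was computed for other genes, so the widening is not shown to be particular to these subunits. Their order was largely kept: levels in JMC45 correlated with levels in vehicle at Pearson r = 0.93 and Spearman rho = 0.89 across the 31 genes, which share libraries and are not independent replicates. Of these 31, which leave out ADRM1 and SEM1, PSMB4 was the highest and PSMD12 the lowest in every library. Genes that were higher in vehicle tended to fall less (r = 0.54, rho = 0.52, n = 31 genes), and the vehicle level enters both sides of that relation. Genes with a longer principal mRNA in GENCODE release 29 tended to fall more, at r = -0.34 and rho = -0.41 over the 46 tested genes. In the longest of them, PSME4, with 7099 bases, the log2 change was -1.86, but PSMG4, with 838 bases, changed by -2.49.

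The activators, which cap the 20S core in place of the 19S particle, formed 2 pairs by change. PSME1 and PSME2 form the PA28 alpha-beta ring, an interferon-inducible cap that favours the production of peptides for MHC class I. PSME1 had 253 and 234 TPM in JMC45, against 175 and 187 TPM in vehicle, a log2 change of 0.42 (SE 0.07, adjusted p = 0.00148). It was the only member that rose, and both JMC45 libraries lay above both vehicle libraries. PSME2 had 249 and 228 TPM in JMC45, against 245 and 269.95 TPM in vehicle. Its groups overlapped, and the change of -0.11 (95% interval -0.30 to 0.08) was not called. PSME1 stood at 101.3% and 102.5% of PSME2 in JMC45, against 71.7% and 69.4% in vehicle. After median-of-ratios scaling both were higher, at 1.77 and 1.24. When libraries were scaled to 1 common total of mitochondrially encoded transcripts, PSME1 changed by -0.04 and was not called, and PSME2 was lower at -0.57.

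The other activators fell. PSME3 (PA28 gamma) caps nuclear proteasomes and had 33.2 and 35.5 TPM in JMC45, against 122 and 111 TPM in vehicle, a log2 change of -1.73 (SE 0.08, adjusted p = 1.31e-05). PSME4 (PA200), a very large single-chain cap, had 6.54 and 6.19 TPM in JMC45, against 25.6 and 25.9 TPM in vehicle, a log2 change of -1.86 (SE 0.09). Both stayed lower after median-of-ratios scaling, at -0.40 and -0.61. PSMF1, known as the inhibitor PI31, had 21.2 and 20.1 TPM in JMC45, against 49.7 and 48.8 TPM in vehicle, a log2 change of -1.21 (SE 0.08), or 0.10 after median-of-ratios scaling. PSME3IP1 and PSMC3IP, the members by symbol only, fell by 1.24 and 0.75.

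**Figure D3:**
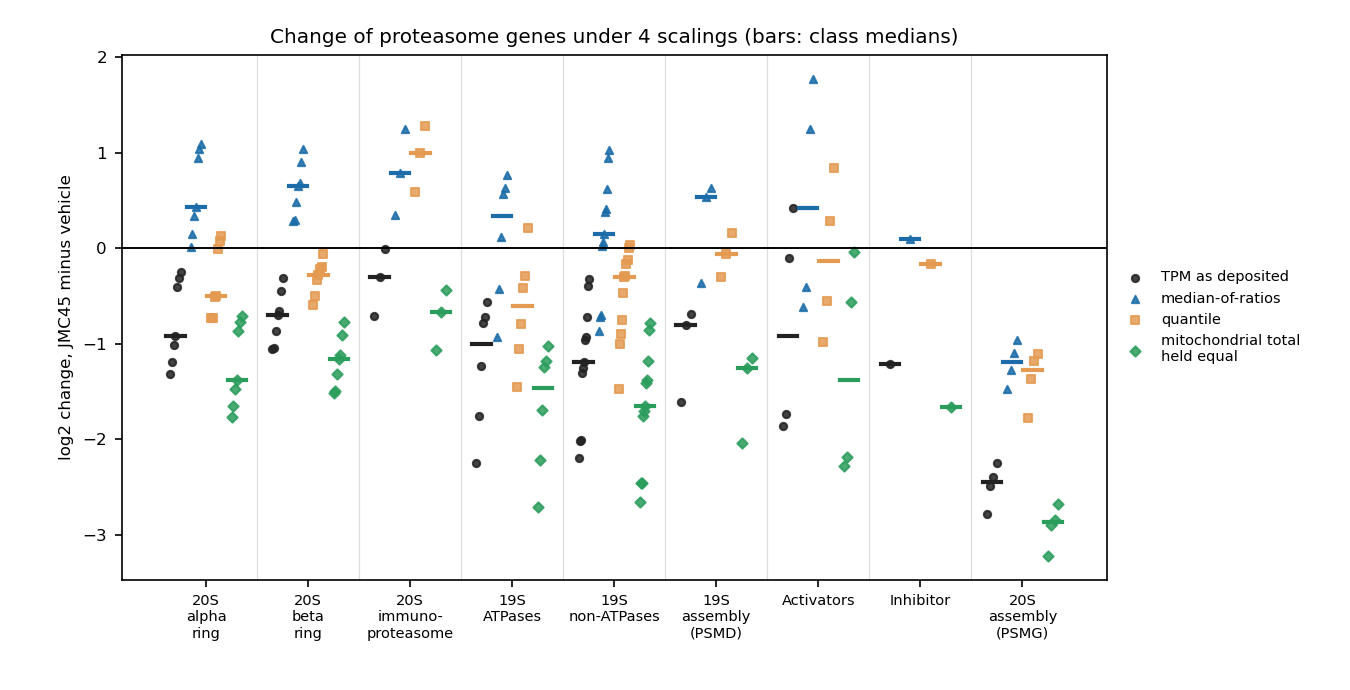
Log2 change of each tested proteasome gene, JMC45 minus vehicle, under the deposited TPM (black), median-of-ratios scaling (blue), quantile normalization (orange) and TPM with the mitochondrially encoded total held equal (green), by class, with bars for class medians. The PSMG chaperones lie below 0 under all 4, whereas most of the 20S subunits lie above 0 after median-of-ratios scaling and below it on TPM and after quantile normalization.

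The genes around the proteasome were read from lists of companions chosen for their roles in assembly, control and substrate supply. Of 33 that were tested, 30 fell and 1 rose on TPM, against 80.7% lower and 4.25% higher of all genes tested. Their median change was -1.11. With median-of-ratios scaling 10 were lower and 13 higher, against 35.5% and 34.9% of all genes. DDI1, a shuttle of the testis, was listed at 0 in all libraries.

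Of 9 genes of the NFE2L1 axis, 8 fell on TPM, where 80.7% of all genes did. After median-of-ratios scaling 4 were lower and 1 higher, where 35.5% of all genes were lower and 34.9% higher. NFE2L1 had 15.8 and 15.7 TPM in JMC45, against 44.9 and 41.9 TPM in vehicle, a log2 change of -1.41 (SE 0.08, adjusted p = 2.15e-05), or -0.11 and not called after median-of-ratios scaling. NGLY1, the glycanase that removes sugars from NFE2L1 on its way to the nucleus, had 3.93 and 4.32 TPM in JMC45, against 23.7 and 23.7 TPM in vehicle, a log2 change of -2.27 (SE 0.10), or -1.06 after median-of-ratios scaling. The protease DDI2, which cuts NFE2L1 into its active form, fell by 1.42 on TPM and was at -0.21, not called, after that scaling. The small MAF partner MAFG had 12.4 and 10.7 TPM in JMC45, against 12.2 and 11.7 TPM in vehicle, with overlapping groups and a change of -0.04 (adjusted p = 0.719).

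Assembly and delivery factors held other large decreases. AKIRIN2, which carries assembled proteasomes into the nucleus, had 1.48 and 2.00 TPM in JMC45, against 21.7 and 15.1 TPM in vehicle, a log2 change of -2.81 (SE 0.20, adjusted p = 4.46e-05), or -1.71 after median-of-ratios scaling. ZFAND5, a proteasome-binding zinc finger protein that stimulates degradation, had 10.4 and 9.20 TPM in JMC45, against 72.3 and 64.6 TPM in vehicle, a log2 change of -2.68 (SE 0.10), or -1.39 after that scaling. UBQLN2, a shuttle that brings ubiquitinated proteins to the proteasome, had 3.52 and 2.69 TPM in JMC45, against 17.9 and 17.6 TPM in vehicle, a log2 change of -2.20 (SE 0.14), or -1.03 after that scaling. These 3 were called lower under both scalings. All 10 tested shuttle and unfolding factors fell on TPM, where 80.7% of all genes did. After median-of-ratios scaling 2 were lower and 6 higher, where 35.5% of all genes were lower and 34.9% higher. The 4 proteasome-bound deubiquitinases and ligases also fell on TPM, and after that scaling UBE3A was lower, UCHL5 higher, and USP14 and UBE3C not called.

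The genes of ubiquitin supply moved apart. UBB, a polyubiquitin gene, fell by 1.63 on the log2 scale on TPM and was at -0.28, not called, after median-of-ratios scaling. UBA1, the enzyme that activates ubiquitin, had 96.1 and 94.2 TPM in JMC45, against 116 and 121 TPM in vehicle, a log2 change of -0.32 (SE 0.06, adjusted p = 0.00322). RPS27A, which encodes ubiquitin fused to a ribosomal protein, was the companion that rose. It had 2482 and 2271 TPM in JMC45, against 1477 and 1629 TPM in vehicle, a log2 change of 0.61 (SE 0.08, adjusted p = 0.00048). It was not called with the mitochondrially encoded total held equal, at 0.15.

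**Figure D4:**
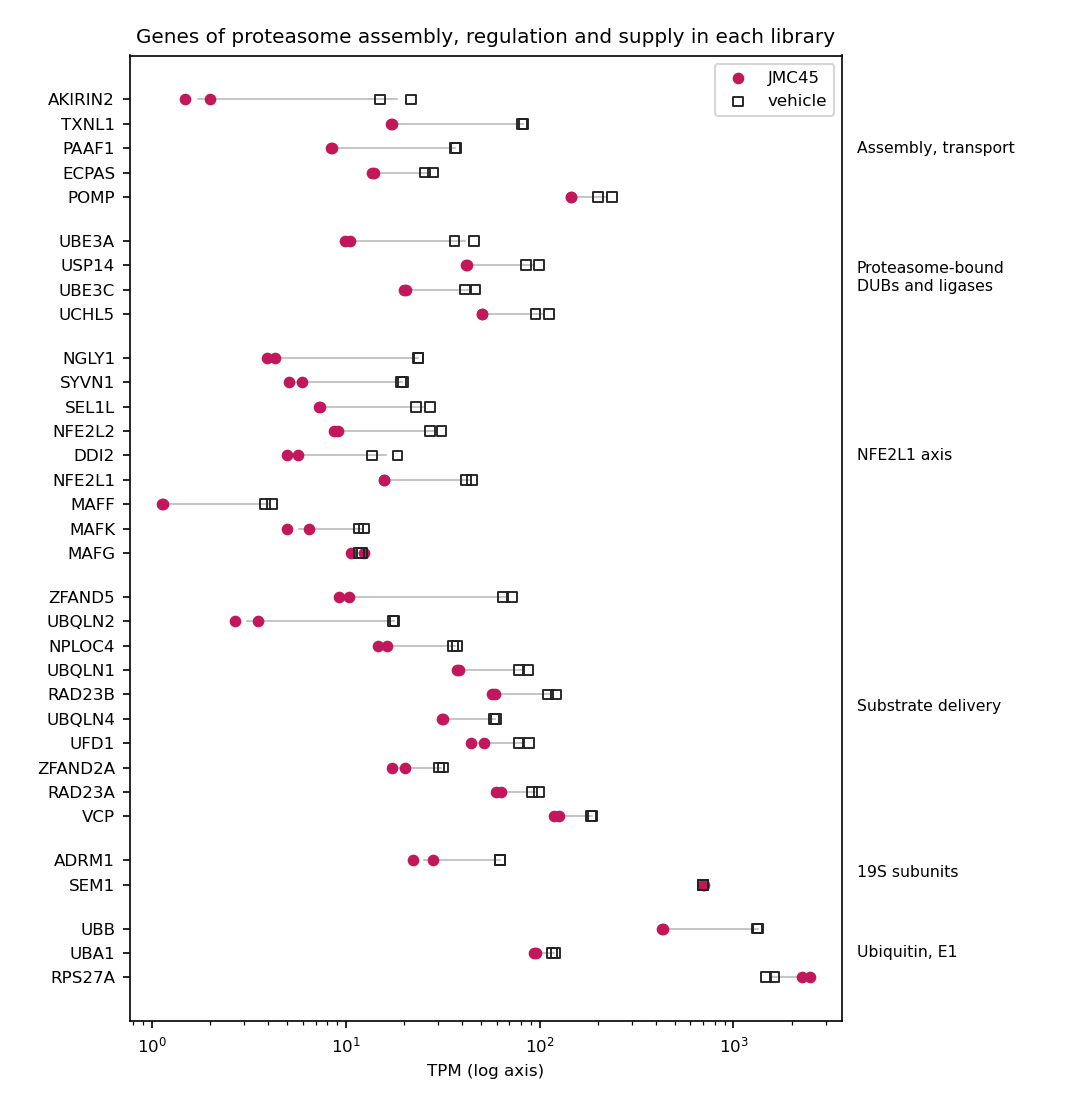
TPM of the 33 tested companion genes in each library on a log axis, with filled circles for JMC45, open squares for vehicle and a grey line joining the group means, by role. AKIRIN2, ZFAND5, NGLY1 and UBQLN2 lie furthest left of their vehicle values, SEM1 and MAFG lie on them, and RPS27A lies right of them.

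Overlapping genes limit some values. In GENCODE release 29, 21 of the 48 tested members share exon bases with a gene on the opposite strand and 8 with a gene on the same strand, whose reads strand cannot separate. The same-strand gene of PSMA2, ENSG00000256646, had 8.31 and 8.25 TPM in JMC45, against 39.9 and 39.9 TPM in vehicle. For PSME1, which rose, the overlapping gene is EMC9, with 10.3 and 9.17 TPM in JMC45, against 39.5 and 36.9 TPM in vehicle, and its JMC45 libraries lay below its vehicle libraries. For PSMG3 it is PSMG3-AS1, with 3.08 and 1.93 TPM in JMC45, against 5.59 and 7.27 TPM in vehicle. PSMG4 overlaps SLC22A23, with 3.22 and 2.98 TPM in JMC45, against 5.11 and 5.10 TPM in vehicle, which in JMC45 is close to the level of PSMG4 itself, and TUBB2B, with 1.75 and 1.66 TPM, against 4.93 and 5.47 TPM. PSMG2 overlaps CEP76 and SPIRE1, neither above 8.25 TPM in any library. In JMC45 the opposite-strand partners of PSME4 and PSME3 lay above these members. For PSME4 it is ACYP2, with 7.65 and 7.81 TPM in JMC45, against 8.04 and 6.27 TPM in vehicle. For PSME3 it is BECN1, with 46.8 and 50.2 TPM in JMC45, against 56.9 and 61.05 TPM in vehicle. PSMC5 overlaps FTSJ3, with 5.14 and 5.24 TPM in JMC45, against 46.7 and 49.7 TPM in vehicle. Their part in these results was not tested.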

How the data were processed

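Poly(A)-selected RNA of 22Rv1 cells was sequenced in 4 libraries. TPM values per Ensembl gene are what the authors deposited, as the column names state. fastp, HISAT2 and StringTie stand in the submitters' processing notes. For their versions, the genome build, the annotation and any use of strand in quantification, the sources used here give nothing. Depth is unknown, so no counting intervals are given. Lines without values (50) were left out. Symbols came from a table of Ensembl identifiers (62666 matched, 575 not). Gene types, mRNA lengths and exon overlaps came from GENCODE release 29, as properties only. The control columns were assigned to vehicle by name and number.

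Values were tested as log2(TPM + 1), which understates changes of low genes, for the 14018 genes that averaged 1 TPM or more. The test was two-sided, by limma 3.58.1 (R 4.3.3) with a trend of the variance on intensity, and Benjamini-Hochberg adjustment over all genes tested at a threshold of 0.05. "Rose", "fell" and "called" mean that it was passed. The method was also run on simulated data without a shift common to most genes. That run says nothing about the choice of scaling. Class sums, ratios and correlations are descriptions.

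In each class the 2 genes with the largest and the 2 with the smallest decreases were named with their values, as were PSMB5 to PSMB10 and every gene not called or called higher. Of the companions, ADRM1, SEM1, POMP, NFE2L1, the 4 most decreased and the 4 least decreased or increased were named likewise. PSMD11, PSMD14, DDI2, MAFF, MAFK, PAAF1, UBB, EMC9, PSMG3-AS1, PSMC1P5, SLC22A23, TUBB2B, ENSG00000256646, CEP76, SPIRE1, ACYP2, BECN1, FTSJ3 and the 4 deubiquitinases and ligases were singled out after their values were seen. Some genes of the companion lists are not reported here. The members and lists were chosen with earlier results of these data known. Alternatives were a pseudocount of 0.1, no filter, a filter at 5 TPM, scaling by median-of-ratios or quantiles, TPM without the mitochondrially encoded genes, that without ribosomal protein genes too, the mitochondrially encoded total held equal, no trend, leaving out each library, and a block for the replicate number. Python 3.11.15, pandas 2.3.3, numpy 2.4.6, scipy 1.17.1 and matplotlib 3.10.9 were used for summaries.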

Additional observations from a re-analysis of the deposited data

How the results depend on the processing

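The limits lie in scaling and in the number of libraries. With the replicate number as a block, 44 proteasome genes were lower and 1 higher, and no call changed among the 48 members and the 11 companions for which it was read. Same-numbered libraries did not deviate together (correlation -0.0471 over all genes tested, 2 pairs), so the numbers are not taken to pair the libraries. With a library left out, between 41 and 44 proteasome genes were lower, against 42 when no filter was set and 43 when it stood at 5 TPM.

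Scaling by median-of-ratios gave 11 proteasome genes lower and 28 higher, with 4981 of all genes lower and 4888 higher (on TPM 11311 and 596), and quantile normalization gave 29 and 7, with 4603 and 4716. At 1 common mitochondrially encoded total, 0 proteasome genes and 181 of all genes were higher, by limma at the same threshold. Without mitochondrially encoded and ribosomal protein genes, 5 and 1644 were higher. The median of the proteasome genes minus that of all genes was 0.16 on TPM, 0.39 with a pseudocount of 0.1, 0.38 after median-of-ratios scaling, 0.24 without mitochondrially encoded genes, 0.074 with their total held equal and 0.33 without ribosomal protein genes too. It was 0.10 to 0.22 with a library left out, -0.63 without the filter on low values and -0.32 after quantile normalization. The cause of these reversals was not tested.

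After median-of-ratios scaling these genes changed sign: PSMA1 1.09, PSMA2 0.94, PSMA3 0.15, PSMA4 0.33, PSMA5 0.017, PSMA6 0.43, PSMA7 1.03, PSMB1 0.48, PSMB2 0.28, PSMB3 0.90, PSMB4 1.03, PSMB5 0.29, PSMB6 0.65, PSMB7 0.69, PSMB8 0.79, PSMB9 0.35, PSMB10 1.25, PSMC1 0.11, PSMC3 0.57, PSMC4 0.77, PSMC5 0.63, PSMD1 0.41, PSMD2 1.02, PSMD3 0.027, PSMD4 0.15, PSMD7 0.38, PSMD8 0.94, PSMD9 0.53, PSMD10 0.63, PSMD13 0.62, PSMD14 0.069, PSME2 1.24, PSMF1 0.10, PSME3IP1 0.094, PSMC3IP 0.57, POMP 0.77, MAFG 1.20, UBA1 1.02 and ADRM1 0.037. After quantile normalization PSMA1 0.13, PSMA7 0.075, PSMB8 0.99, PSMB9 0.58, PSMB10 1.28, PSMC4 0.21, PSMD2 0.028, PSMD8 0.0042, PSMD10 0.16, PSME2 0.28, PSMC3IP 0.25, UBA1 0.26 and MAFG 1.26 did. Without mitochondrially encoded and ribosomal protein genes PSMA1 0.24, PSMA2 0.090, PSMA7 0.18, PSMB3 0.047, PSMB4 0.18, PSMB8 0.11, PSMB10 0.47, PSMD2 0.17, PSMD8 0.092, PSME2 0.39, UBA1 0.18 and MAFG 0.43 did, and RPS27A has no value there because it is among the genes removed. Without mitochondrially encoded genes alone PSMB10 0.13, PSME2 0.040 and MAFG 0.092 did, and with their total held equal PSME1 -0.037 and SEM1 -0.45 did. With a library left out PSMB10 ranged from -0.15 (without JMC45 replicate 1) to 0.13 (without JMC45 replicate 2), with 0.014 without vehicle replicate 1, and MAFG from -0.14 to 0.053, without the same libraries. Where a group keeps 1 library, it is assumed to vary like the other group.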
